A study of Mus musculus with 18 samples.

Results

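The cells described here are brain endothelial cells, the cells that line the blood vessels of the brain. They were chosen by the measured UMI counts of 16 genes in single-nucleus RNA-seq libraries, so the levels of these genes in the members are a description and were not tested. A nucleus with at least 200 genes and at most 10% mitochondrial unique molecular identifiers (UMIs) was a member when its UMIs of Flt1, Cldn5, Pecam1 and Adgrl4 summed to at least 4. That sum also had to be at least 2 times the summed UMIs of 12 genes of neurons, glia and mural cells (Slc17a7, Gad1, Gad2, Mog, Mag, Pdgfra, Aqp4, Gja1, Csf1r, Inpp5d, Rgs5 and Pdgfrb). By this rule 1468 of 138000 nuclei (1.06%) were members, 632 of 71398 in the hippocampus (Hip) and 836 of 66602 in the prefrontal cortex (PFC).

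The study asked how the gut microbiome shapes gene expression in brain cells. Nuclei of Hip and PFC were taken from the same 9 Kun Ming mice, an outbred stock, at 8 weeks of age. The mice were 3 specific pathogen-free (SPF) mice (numbers 30, 31 and 32), 3 germ-free (GF) mice (5, 6 and 7) and 3 colonized GF (CGF) mice (17, 18 and 19), which were GF mice that shared a cage with an SPF mouse from 4 weeks of age. GF and CGF mice lived in isolators and SPF mice elsewhere, so housing and microbiota cannot be told apart in GF vs. SPF. CGF mice were allocated at random from the GF mice, so origin and early life as GF mice set both groups apart from SPF mice. Each library held the nuclei of 1 region of 1 mouse, which gave 18 libraries and 3 mice per group.

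Endothelial cells of the brain form the blood-brain barrier. Tight junctions seal the space between them, carriers move glucose, amino acids, lipids and hormones across, and efflux pumps return drugs to the blood. Wnt and beta-catenin signals keep this barrier program, shear stress from flowing blood acts through the transcription factors Klf2 and Klf4, and the cells answer interferons and cytokines that arrive with the blood.

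A median member held 2031.5 UMIs in all (511 to 53297), 14 UMIs of the 4 endothelial genes and 2 of the 12 others, and 286 members held none of the 12. The 106 members with exactly 4 UMIs of the endothelial genes held a median of 991.5 UMIs. The 101 nuclei left just outside, with 3, held a median of 810. Of the nuclei with 4 or more, 693 failed on the other genes, 509 of them through Rgs5 alone, a pericyte gene. Rgs5 stood at 339 to 2037 counts per 1e6 UMIs of the members of a library (CPM). No doublet caller was run. Libraries shared 6 to 29 barcodes in 153 pairs, and 0 members.

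The label fitted the markers. Of 32 further endothelial genes that the rule did not use, 31 were higher in the members than in the other nuclei in all 18 libraries, as a description and with no test. Slco1a4, a carrier of organic anions, stood at 1432 to 4213 CPM in the members and at 2.97 to 24.75 CPM in the other nuclei. Tek, the receptor for angiopoietins, stood at 271 to 786 CPM against 2.41 to 9.11. The exception was Egfl7, at 0 in 1 library. RNA of other cells was present too. The 12 neuron markers summed to 4129 to 17200 CPM in the members of a library, and Meg3 reached 1919 CPM over all members against 6595 CPM in the neuron gate. These sums lay below the 34680 CPM of the other nuclei. Mural markers were enriched in the members, at 105 to 1501 CPM summed over 10 markers, against 46.41 CPM in the other nuclei and 5964 CPM in the mural gate. Acta2, an actin of smooth muscle, stood at 124 CPM in the members and 2.57 CPM in the other nuclei. It was higher in the members than in the mural gate (24.06 CPM), as was Tagln (83.95 against 11.23 CPM). Every other mural marker was lower in the members than in that gate.

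Libraries of SPF and CGF mice from PFC stood apart from all others. They held 20336250 to 26949210 UMIs each, against 49067853 to 71463928 in the other 12, and their members held a median of 1276 to 1479 UMIs against 1805.5 to 4057. Gm42418, a transcript that overlaps ribosomal RNA, reached 22230 to 43130 CPM in the members of these 6 libraries and 499 to 3716 CPM in the others. In PFC, therefore, GF against either other group cannot be told apart from this difference between libraries. Library totals of the Hip groups overlapped, but GF Hip did not overlap SPF Hip in 3 measures. Members of GF Hip had a median mitochondrial share of 1.30% to 2.70%, against 0.316% to 0.804% in SPF and CGF Hip. Mean UMIs per kept nucleus were 5510 to 6856 in GF Hip, against 7522 to 8195 in SPF Hip and 6726 to 8846 in CGF Hip. Gm42418 was at 647 to 946 CPM in GF Hip members and at 2037 to 3716 CPM in SPF and CGF members. These measures move with every Hip result on GF mice given here, and their part was not tested.

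Endothelial nuclei made up 0.344% to 2.15% of a library. In Hip their share was 0.558%, 0.447% and 1.35% in SPF mice, 0.344%, 1.14% and 1.72% in GF mice, and 0.496%, 0.456% and 1.26% in CGF mice. In PFC it was 1.02%, 0.959% and 1.496% in SPF mice, 1.38%, 1.24% and 2.15% in GF mice, and 0.811%, 0.786% and 1.15% in CGF mice. The groups overlapped in Hip, and in PFC every GF mouse lay above every CGF mouse. Exact permutation tests over the 3 groups gave two-sided p = 0.711 in Hip and p = 0.104 in PFC, where 0.00357 is the smallest p possible. With each nucleus thinned to 1000 UMIs, which left out 3065 SPF, 3634 CGF and 585 GF nuclei of PFC, the exact p in PFC was 0.0179. Mean shares then were 1.27% for GF, 0.818% for SPF and 0.571% for CGF mice. With each library thinned as a whole the exact p was 0.529, and by a stricter rule, with a sum of at least 6 and none of the 12 other genes, GF was lowest in PFC (0.158%, against 0.202% in CGF and 0.250% in SPF mice, exact p = 0.368).

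Members were more frequent in PFC than in Hip in 8 of 9 mice. The mean of Hip minus PFC was -0.360 percentage points (SD 0.323, n = 9), with p = 0.0117 in an exact sign-flip test chosen after the values were seen. The difference was -0.135 points with each nucleus thinned to 1000 UMIs (exact p = 0.258), and -0.0736 points without Rgs5 in the rule (exact p = 0.719). Mice 32, 7 and 19 had the highest share of their group in both regions. Shares of nuclei rest on recovery from tissue as well as on vessels, and these cannot be told apart.

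**Figure D1:**
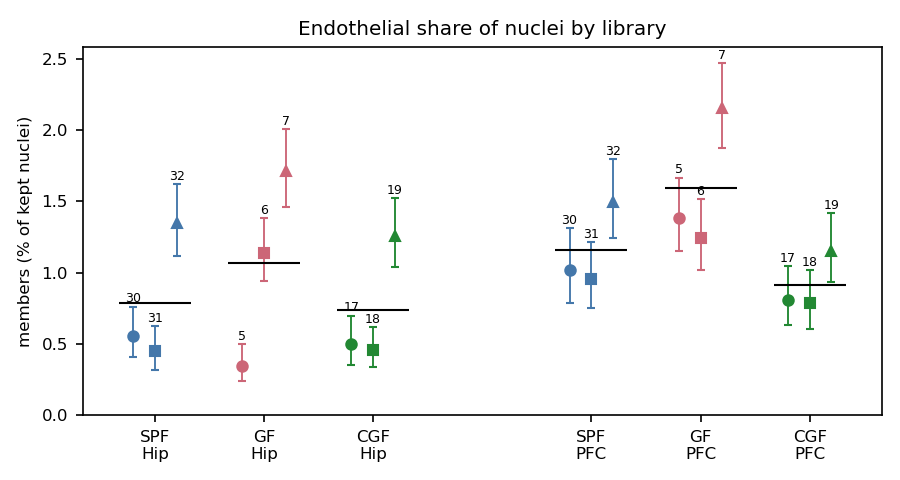
Share of kept nuclei that were endothelial members (%), per library, with 95% Wilson intervals that cover counting error only. Symbols carry the mouse number, colours the group, and lines the group means; mouse 7 in PFC is highest at 2.15%, and mouse 5 in Hip lowest at 0.344%.

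For expression, the UMIs of all members of a library were summed and the 9 sums of a region were compared with the quasi-likelihood test of edgeR and Benjamini-Hochberg adjustment, at an adjusted p of 0.05. Log2 fold changes are given with a standard error derived as the absolute fold change over the square root of the F statistic of the test. Fewer members and less RNA per nucleus cannot be told apart in these sums, and sums held 123429 to 608740 UMIs. Between GF and SPF members of Hip, 157 of 6526 genes changed (2.41%), 136 higher (2.08%) and 21 lower (0.322%) in GF mice. With the trend on gene length and GC content removed, the split was 26 higher and 15 lower. In PFC 1422 of 4647 genes changed (30.6%), 835 higher (18%) and 587 lower (12.6%), or 610 and 539 with that trend removed. Of the 157 genes of Hip, 126 changed in PFC too, 125 in the same direction, which is 80.25% of the Hip genes and 8.86% of those of PFC. The mice are the same in both regions.

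The Hip counts rested on single mice. Without GF mouse 7 or without SPF mouse 30 no gene passed, without GF mouse 6 only 3 passed, without SPF mouse 32 there were 27, without GF mouse 5 there were 99, and without SPF mouse 31 there were 205. Without a CGF mouse, which enters through the shared spread and the filter on low counts, 72 to 86 passed. All 157 genes that passed kept their sign wherever they were tested without 1 mouse. The genes were chosen in the full fit and these fits share its other mice, so this was largely fixed in advance.

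**Figure D2:**
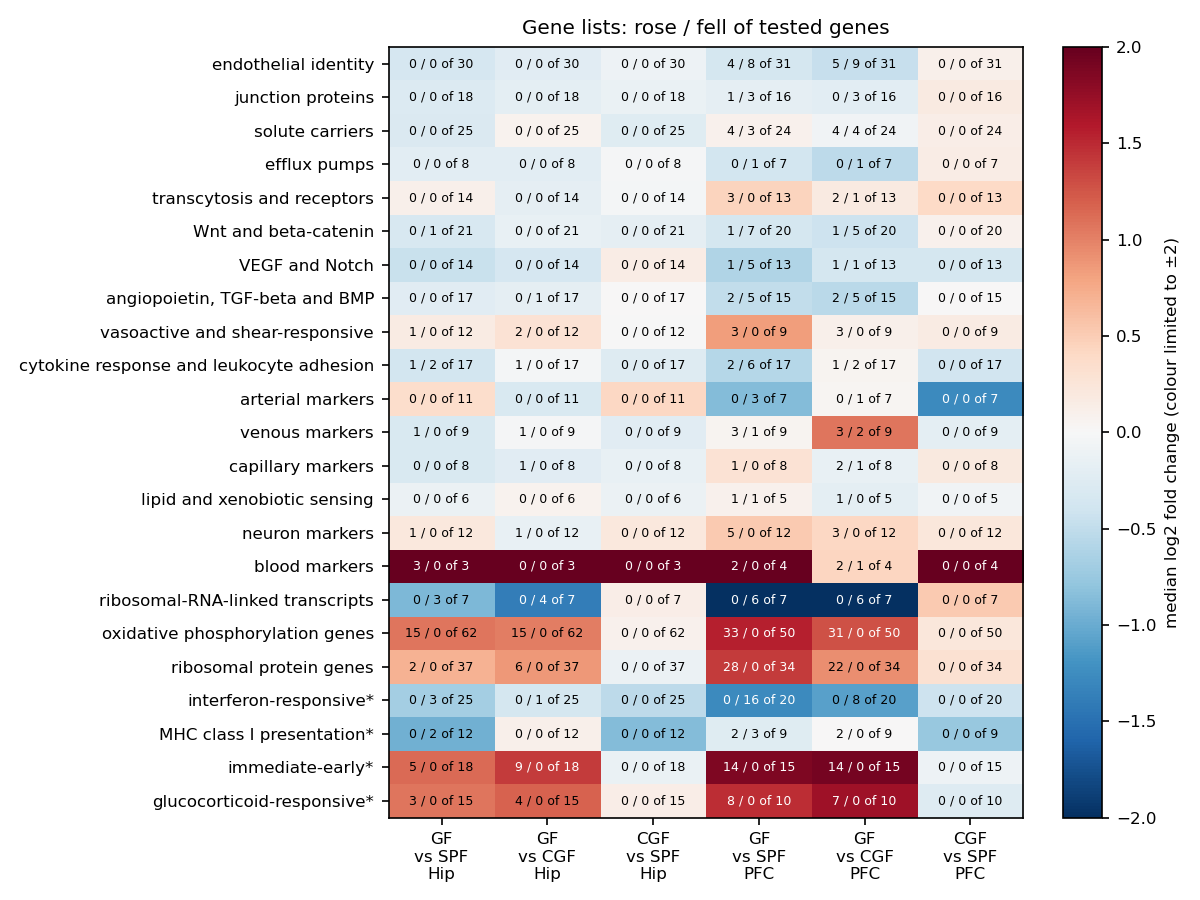
Gene lists (rows) in the 6 comparisons of groups (columns). Each cell gives genes that rose / fell of those tested, and its colour the median log2 fold change, limited to ±2. Asterisks mark lists chosen after the values were seen. CGF vs. SPF has no called list gene in either region, while 14 of 15 immediate-early genes rose in GF vs. SPF of PFC. Nothing is read from that count of 14, because of the filter on low counts.

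Of genes that answer interferon, 3 of 25 fell in GF members of Hip and 16 of 20 in PFC, against 0.322% and 12.6% of all genes. No GF library reached the filter on low counts for Oasl2 in Hip, Irf7 in PFC or Ddx60 in either region. Such genes were tested only through libraries where they were higher, so nothing is read from these counts. The calls of Oasl2, Ddx60 and Irf7 below are given as a description. This list of 45 genes was written after the values were seen, as were the other lists marked so, and is described by counts. In Hip Oasl2 and Ddx60 were among the 3 that fell, 0 rose, and the median log2 fold change was -0.68 against -0.03 over all genes. In PFC 0 rose (median -1.27 against -0.02). In fits without 1 mouse 0 to 1 fell in Hip and 10 to 18 in PFC. With the trend on gene length and GC content removed the counts of genes that fell were 2 of 25 and 16 of 20.

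Oasl2, a protein related to the antiviral oligoadenylate synthetases, stood at 59.4, 101.5 and 55.2 CPM in SPF, 24.0, 24.5 and 17.5 CPM in GF and 43.8, 27.9 and 46.9 CPM in CGF members of Hip. SPF and GF did not overlap (log2 fold change -1.55 ± 0.38, adjusted p = 0.0479 by edgeR). In PFC Oasl2 fell by 1.44 ± 0.51 on the log2 scale.

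Ddx60, a helicase that aids sensing of viral RNA, separated GF members from both other groups in each region. Its level in Hip was 59.4, 78.1 and 93.4 CPM in SPF, 16, 10.5 and 22.8 CPM in GF and 65.7, 69.8 and 89.1 CPM in CGF members. Every GF value lay below every SPF and CGF value, with a log2 fold change of -2.002 ± 0.37 against SPF and -2.02 ± 0.37 against CGF (adjusted p = 0.0201 and 0.019, edgeR). In PFC it was 221, 194 and 120 CPM in SPF, 25.0, 15.0 and 13.1 CPM in GF and 157, 42.8 and 116 CPM in CGF members. The order was the same, and the log2 fold change was -3.21 ± 0.41 against SPF and -2.55 ± 0.45 against CGF. Ddx60 was also lower in GF in the other nuclei, at 0.576 to 0.726 CPM in GF against 2.37 to 2.64 in SPF Hip.

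Irf7, which amplifies the type I interferon response, held too few UMIs in Hip to be tested. In PFC it stood at 94.7, 64.8 and 65.9 CPM in SPF, 13.9, 3.75 and 9.86 CPM in GF and 62.7, 28.6 and 28.9 CPM in CGF members. Irf7 fell in GF against SPF (-2.80 ± 0.48, adjusted p = 0.000322, edgeR) and against CGF (-1.93 ± 0.57, adjusted p = 0.0178). It reached the filter on low counts in every SPF library and in no GF library. It was thus tested through the group where it was high, and the fall is a description.

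MHC class I molecules present peptides to CD8 T cells. B2m, the light chain of class I molecules, stood at 438, 1100 and 216 CPM in SPF, 136, 130 and 121 CPM in GF and 299, 265 and 228 CPM in CGF members of Hip. All GF values lay below all SPF and CGF values, and SPF and CGF overlapped (against SPF -2.003 ± 0.45, adjusted p = 0.0442, edgeR), and this call held in 2 of 9 fits without 1 mouse. Against CGF the change was -0.95 ± 0.45 and did not pass. B2m also fell in PFC against SPF (-1.77 ± 0.31) at 183, 120 and 117 CPM in GF against 434, 794 and 310 CPM.

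H2-K1, a class I heavy chain, was low in GF and CGF members alike. In PFC it stood at 355, 786 and 128 CPM in SPF, 91.7, 93.8 and 75.6 CPM in GF and 94.1, 57.1 and 104 CPM in CGF members. GF was lower than SPF (-2.13 ± 0.42, adjusted p = 0.00103, edgeR), with 0.01 ± 0.54 against CGF. The log2 fold change of CGF against SPF was -2.14 ± 0.49 and did not pass (adjusted p = 0.259). H2-Q4 showed the same order in Hip, with 19, 22 and 25 UMIs in SPF, 0, 0 and 1 in GF and 0, 0 and 3 in CGF members. It passed between GF and SPF, but counts this low give no fold. Class I heavy chains are near-identical copies whose reads the counting may divide, so H2-K1 and H2-Q4 are uncertain. GF and CGF mice also shared an origin and early life as GF mice that SPF mice did not, and its part was not tested. Of the 20 genes of the list 12 were tested in Hip, where B2m and H2-Q4 fell. H2-Q4 passed the filter on low counts only through the SPF libraries, so nothing is read from the Hip count. In PFC 3 of 9 fell (B2m, H2-K1 and the peptide transporter Tap2), against 12.6%, and 2 rose, the chaperones Calr and Canx, against 18%. Without 1 mouse 0 to 3 fell in Hip and 3 to 8 in PFC.

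**Figure D3:**
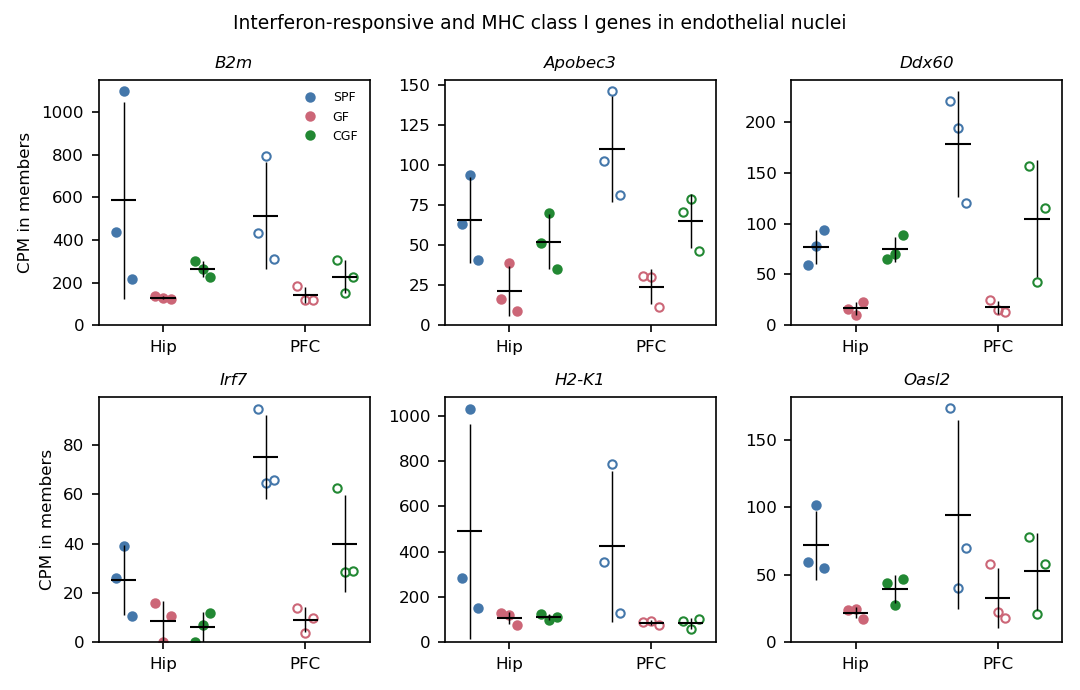
Level of 6 interferon-responsive and MHC class I genes in the members (CPM, linear axes from 0), 1 point per library, with mean and SD of the 3 mice. Filled points are Hip and open points PFC; GF points of Ddx60 lie below all SPF and CGF points in both regions, while H2-K1 is low in GF and CGF alike.

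Interferon-activated factors bind DNA elements in which GAAA recurs. The motif searched was GAAA, any 2 bases and GAAA again, and on the other strand TTTC, any 2 bases and TTTC, in windows from 250 bases before to 50 after each RefSeq start on GRCm38.p6. It was found for 18 of 34 interferon-responsive genes with a window (52.9%), against 1079 of 27025 genes (3.99%). Of the genes that fell in PFC, 8 of 13 with a window held it (61.5%). The share was 23.5% for 17 genes of MHC class I presentation, and 5.26% for 19 immediate-early genes and for 19 glucocorticoid-responsive genes. A match is a run of letters, not a bound site. The list was written as genes that answer interferon, so its excess over all genes was fixed in advance. That excess says nothing about the fall in GF members. The lines give 100-base stretches from the 250 bases before the start of 4 genes that fell in GF members and hold the motif, on the plus strand of GRCm38.p6 and with the motif in capitals, so that the element can be seen in place.
Ddx60, chr8:61927987-61928086: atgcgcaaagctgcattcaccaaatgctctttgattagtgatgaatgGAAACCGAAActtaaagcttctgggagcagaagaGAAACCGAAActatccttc
B2m, chr2:122147503-122147602: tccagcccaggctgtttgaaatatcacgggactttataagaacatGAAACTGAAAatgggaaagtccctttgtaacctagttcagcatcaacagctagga
Gbp5, chr3:142496724-142496823: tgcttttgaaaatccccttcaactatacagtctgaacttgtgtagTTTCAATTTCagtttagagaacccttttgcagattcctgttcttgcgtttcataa
Apobec3, chr15:79892223-79892322: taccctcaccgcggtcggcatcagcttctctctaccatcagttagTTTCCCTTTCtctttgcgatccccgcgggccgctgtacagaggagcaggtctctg
Ddx60 holds the motif 2 times. Gbp5, a guanylate-binding protein of cell-autonomous defence, fell in PFC by 2.05 ± 0.47 log2 units (-0.47 ± 0.57 in Hip, not past the threshold). Apobec3, a restriction factor against retroviruses, fell there by 2.19 ± 0.40 (-1.49 ± 0.53 in Hip, not past the threshold).

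Of 12 vasoactive and shear-responsive genes tested in Hip only Klf2 rose in GF members (median 0.16), and in PFC 3 of 9 rose, against 2.08% and 18% of all genes. Klf2, the factor that shear stress induces, stood at 427, 1007 and 257 CPM in SPF, 1888, 1184 and 1497 CPM in GF and 562, 523 and 462 CPM in CGF members of Hip. GF lay above both other groups (1.61 ± 0.39 against SPF, adjusted p = 0.0479, and 1.65 ± 0.39 against CGF, adjusted p = 0.0406, edgeR). In PFC Klf2 stood at 142, 138 and 132 CPM in SPF, 1658, 1160 and 1819 CPM in GF and 259, 85.7 and 133 CPM in CGF members. The change against SPF was 3.56 ± 0.30 there. Between Hip and PFC of GF mice the difference was 0.02 ± 0.34, and the change between GF and SPF was larger in PFC by 1.87 ± 0.52, which did not pass (adjusted p = 0.0777, edgeR). Its partner Klf4 rose in PFC (1.59 ± 0.32) and not in Hip (0.02 ± 0.45). The Hip call of Klf2 held in 1 of 9 fits without 1 mouse.

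Apold1, an endothelial early-response gene, rose from 33.4, 31.2 and 53.1 CPM in SPF to 248, 130 and 223 CPM in GF members of Hip, with 29.2, 20.9 and 42.2 CPM in CGF. SPF and CGF overlapped and GF lay apart (2.32 ± 0.33, adjusted p = 0.00886, edgeR, called in 7 of 9 fits without 1 mouse). Apold1 passed the filter on low counts in Hip only through the GF libraries, where it was high, so this call is a description. Tmem252, listed here as a venous marker, stood at 37.1, 31.2 and 19.1 CPM in SPF, 120, 231 and 196 CPM in GF and 43.8, 69.8 and 30.5 CPM in CGF members (2.88 ± 0.37 against SPF). Both also rose in PFC, Apold1 by 2.97 ± 0.42 and Tmem252 by 2.38 ± 0.32 log2 units. Whether Apold1 reached the filter in SPF or CGF libraries of PFC is not given, so its rise there is a description too. Junb, a subunit of AP-1, rose by 1.95 ± 0.32 in Hip.

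Of 18 immediate-early genes tested in Hip, 5 rose against SPF (Apold1, Jund, Klf2, Junb and Rhob) and 0 fell, with a median of 1.13, and 0 to 7 rose in fits without 1 mouse. Since Apold1 was tested only through the GF libraries, nothing is read from the Hip count. In PFC 14 of 15 rose (median 1.86), and 12 to 15 without 1 mouse. The filter on low counts acted in PFC too, and whether genes passed it there only through GF libraries is not given. Nothing is read from the PFC count either. The shares of all genes that rose were 2.08% and 18%. With the trend on gene length and GC content removed, 1 of 18 and 10 of 15 rose, and the medians were 0.51 and 1.17. Junb also stood higher in the other nuclei of GF Hip, at 59.2 to 77.1 CPM against 14.7 to 19.8 in SPF.

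Glucocorticoid-responsive genes, also listed after the values were seen, rose in 3 of 15 cases in Hip (Zbtb16, Nfkbia and Cdkn1a) and 8 of 10 in PFC, against 2.08% and 18% of all genes, and 0 fell. In Hip 0 to 5 rose in fits without 1 mouse and 0 to 6 under other settings, and in PFC 4 to 9 and 5 to 9. Cdkn1a, an inhibitor of the cell cycle, stood at 40.8, 70.2 and 23.3 CPM in SPF and 144, 94.6 and 203 CPM in GF members of Hip (2.09 ± 0.44, adjusted p = 0.0346, edgeR). Nfkbia, the inhibitor of NF-kappaB, rose there by 1.21 ± 0.28. In PFC Fkbp5, a co-chaperone of the glucocorticoid receptor, rose by 1.97 ± 0.54 log2 units, and Nr3c2, the mineralocorticoid receptor, fell.

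**Figure D4:**
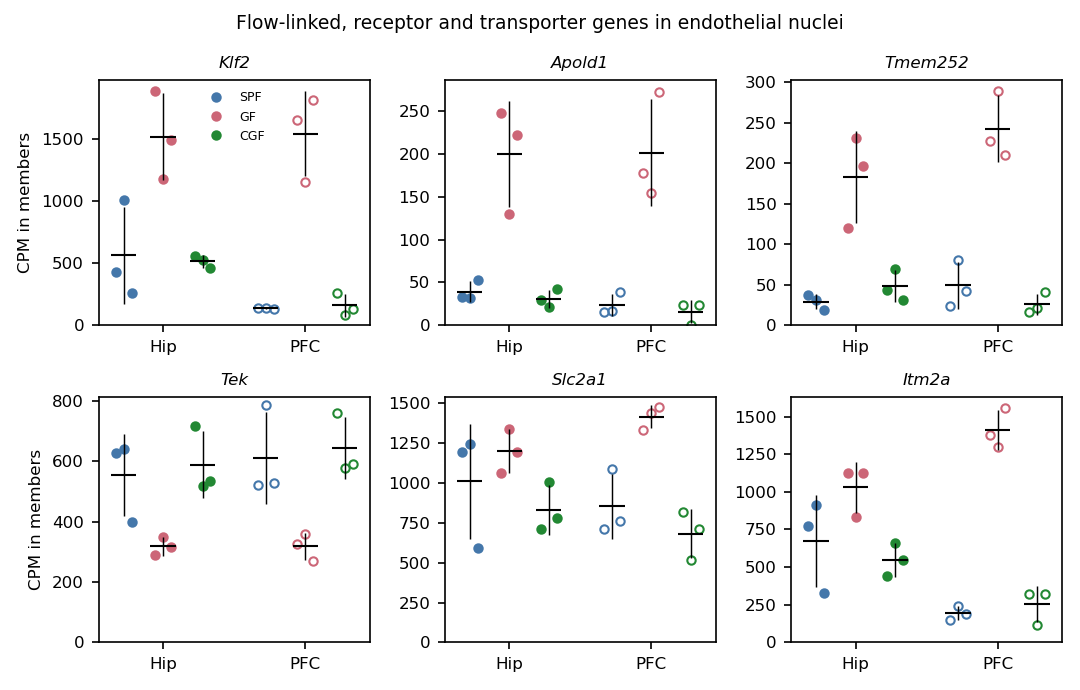
Level of Klf2, Apold1, Tmem252, Tek, Slc2a1 and Itm2a in the members (CPM, linear axes from 0), 1 point per library, with mean and SD of the 3 mice. Filled points are Hip and open points PFC; Klf2, Apold1 and Tmem252 are higher in GF than in SPF and CGF mice of both regions, and Tek is lower in every GF library.

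The endothelial program itself did not pass the test in Hip. Of 30 identity genes outside the rule 0 rose and 0 fell between GF and SPF (edgeR, median -0.34 against -0.03 over all genes), and DESeq2 called 0 as well. The same held for 18 junction proteins, 25 solute carriers, 8 efflux pumps, 14 genes of transcytosis and receptors and 14 of VEGF and Notch signalling. Unadjusted, 1301 of the 6526 genes had p under 0.05. On simulated counts of this comparison edgeR found 12% of 100 genes changed by 1 log2 unit and 84% of 100 changed by 2, so smaller changes could go unseen here.

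None of the 22 core genes passed in Hip, and their estimates lay on both sides of 0. Tek stood at 627, 640 and 399 CPM in SPF, 288, 350 and 317 CPM in GF and 715, 516 and 535 CPM in CGF members. GF did not overlap either group, with -0.66 ± 0.26 against SPF (adjusted p = 0.168, edgeR). Kdr, the main receptor for VEGF, gave -0.74 ± 0.33, Cdh5, the cadherin of endothelial junctions, -0.58 ± 0.30, and Abcb1a, which encodes the efflux pump P-glycoprotein, -0.81 ± 0.26. Slc2a1, the glucose carrier of the barrier, gave 0.38 ± 0.29, and Mfsd2a, the carrier of lysolipids that restrains transcytosis, 0.43 ± 0.32. Ocln and Tjp1 of the tight junction gave 0.07 ± 0.23 and -0.23 ± 0.24.

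**Figure D5:**
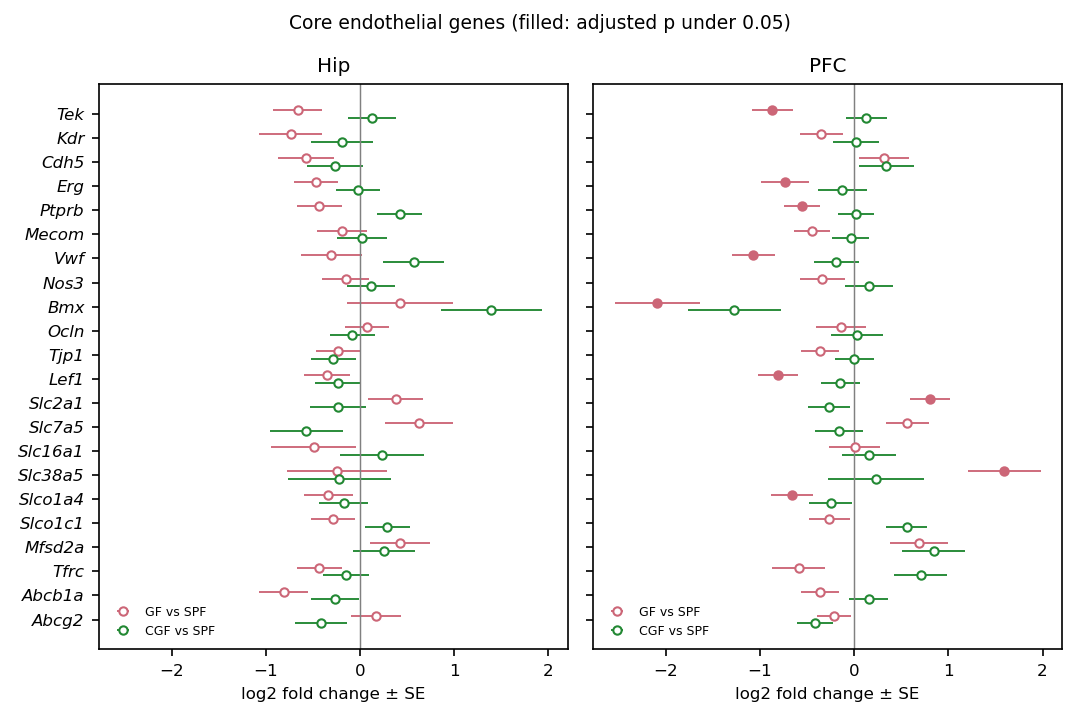
Log2 fold change ± SE of 22 core endothelial genes in Hip (left) and PFC (right), GF vs. SPF and CGF vs. SPF, from edgeR. Filled points have an adjusted p under 0.05; these are GF vs. SPF in PFC only, with Bmx lowest at -2.09 and Slc38a5 highest at 1.60.

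In PFC the same genes passed more often, beside a background of 30.6% of all genes. Among 31 identity genes 4 rose (Cd34, Itm2a, Esam and Ly6c1) and 8 fell (Tek, Tie1, Vwf, Slco1a4, Ptprb, Robo4, Ebf1 and Erg), against 18% and 12.6% of all genes. Without 1 mouse 3 to 4 rose and 4 to 11 fell. With the trend on gene length and GC content removed the counts were 2 and 4. Itm2a, a membrane protein of barrier endothelium, stood at 150, 243 and 186 CPM in SPF, 1380, 1295 and 1556 CPM in GF and 322, 114 and 324 CPM in CGF members. Ly6c1, a surface protein of mouse endothelium, rose by 1.91 ± 0.32. In Hip, Itm2a gave 0.76 ± 0.33 and Ly6c1 -0.25 ± 0.38, neither past the threshold, and for Itm2a the 2 regions differed by 2.097 ± 0.47 (adjusted p = 0.0245, edgeR). The SPF libraries of PFC stood apart, so region and library cannot be told apart for this difference.

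Tek, Tie1 and Ptprb of the angiopoietin pathway fell in GF members of PFC. Tek stood at 521, 786 and 527 CPM in SPF, 325, 360 and 271 CPM in GF and 761, 578 and 590 CPM in CGF members (-0.87 ± 0.22, adjusted p = 0.00574, edgeR). Tie1, its co-receptor, fell by 0.96 ± 0.24, and Ptprb, the phosphatase that damps Tek, by 0.55 ± 0.19. Vwf, which tethers platelets, fell by 1.07 ± 0.23, Erg, a factor of endothelial identity, by 0.73 ± 0.25, and Bmx, a kinase of arterial cells, by 2.09 ± 0.45 on the log2 scale. Of 15 genes of angiopoietin, TGF-beta and BMP signalling 5 fell and 2 rose, the BMP targets Id1 (1.72 ± 0.26) and Id3 (1.82 ± 0.29), where 12.6% of all genes fell and 18% rose. Without 1 mouse 2 to 6 of the list fell, and 1 to 5 under other settings. Arterial markers summed to 1896 to 2855 CPM in SPF, 938 to 1386 in GF and 1142 to 1618 in CGF members of PFC, so fewer arterial nuclei and lower arterial genes cannot be told apart there. 3 of 7 arterial markers fell. Venous markers gave 3 rises and 1 fall of 9, and capillary markers 1 rise of 8. Against the same shares of all genes, the capillary count and the venous fall lie below the background.

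The share of members counted as arterial, read from the same markers, was lower in GF than in SPF libraries of both regions. Members with at least 3 UMIs of arterial markers and at least 2 times as many as of venous markers made up 25.9% to 30.9% of members in SPF, 13.7% to 21.1% in GF and 13.6% to 25.3% in CGF PFC. In Hip they made up 33.3% to 42.7% in SPF, 21.4% to 31.1% in GF and 33.3% to 46.9% in CGF libraries, so GF lay below both other groups. Members with the reverse ratio, counted as venous, made up 33.3% to 39.4% in GF PFC, above all SPF and CGF libraries there (14.9% to 31.03%). These shares depend on depth and on markers that themselves changed, such as Tmem252, and their part in the results was not tested. In the other nuclei the arterial markers summed to 624.8 CPM and the venous markers to 93.33 CPM, so the arterial list was less specific.

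Among 24 solute carriers in PFC 4 rose and 3 fell, near the 30.6% of all genes that changed there. The counts of junction and transcytosis genes were near it too and the efflux count was lower, so these calls say nothing about the lists. Slc2a1 stood at 710, 1086 and 763 CPM in SPF, 1333, 1437 and 1474 CPM in GF and 815, 514 and 711 CPM in CGF members, without overlap between GF and the others (0.80 ± 0.21, adjusted p = 0.00805, edgeR). Slc38a5, a glutamine carrier, rose by 1.60 ± 0.38, and Slc12a2, the sodium, potassium and chloride cotransporter, by 1.80 ± 0.37. Slco1a4 fell by 0.66 ± 0.22 log2 units. Bsg, a chaperone of lactate carriers, rose by 2.39 ± 0.28 and Cav2, a caveolin, by 1.42 ± 0.36, 2 of the 3 genes of transcytosis and receptors that rose of 13. The pump gene Abca1, a cholesterol exporter, fell, 1 of 7. Junction proteins gave 1 rise (Esam) and 3 falls (Magi1, Pard3 and Afdn) of 16.

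Wnt and beta-catenin genes fell in 7 of 20 cases in PFC and rose in 1. Of all genes 12.6% fell, 18% rose and 30.6% changed there, and the other lists of signalling are read against the same shares. Without 1 mouse 4 to 8 Wnt genes fell, and 0 to 6 under other settings. Lef1, the factor that beta-catenin binds in brain endothelium, stood at 1341, 1977 and 1430 CPM in SPF, 706, 998 and 885 CPM in GF and 1513, 1135 and 1485 CPM in CGF members (-0.81 ± 0.21, adjusted p = 0.00734, edgeR). Axin2, a target of the pathway, fell by 1.02 ± 0.34 and Reck, a co-receptor for Wnt7, by 1.18 ± 0.35, while the receptor Fzd4 rose by 0.9956 ± 0.33 log2 units. In Hip, where 0.322% of all genes fell and 2.08% rose, 1 of 21 fell, Tnfrsf19 (-1.14 ± 0.27), and Lef1 gave -0.35 ± 0.24. Without 1 mouse 0 Wnt genes fell in Hip. Of the VEGF and Notch genes 5 of 13 fell in PFC, with the Notch ligands Jag1 (-1.37 ± 0.39) and Jag2 (-1.26 ± 0.28) among them, and the Notch target Hes1 rose by 1.11 ± 0.33. Without 1 mouse 3 to 6 of them fell. The 3 vasoactive and shear-responsive genes that rose in PFC were Klf2, Klf4 and Klf6. Cytokine response and adhesion genes gave 2 rises, Icam2 and the chemokine scavenger Ackr3, and 6 falls of 17 in PFC, and 1 rise and 2 falls of 17 in Hip, beside the same Hip shares of 2.08% and 0.322%. Genes of lipid and xenobiotic sensing gave 0 of 6 in Hip, and 1 rise and 1 fall of 5 in PFC.

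In Hip 15 of 62 nuclear genes of oxidative phosphorylation rose in GF members and 0 fell (median 1.07), and 2 of 37 ribosomal protein genes rose, against 2.08% of all genes. Without 1 mouse 0 to 21 and 0 to 9 rose. In PFC 33 of 50 and 28 of 34 rose and 0 fell, against 18% of all genes. Atp5g1, a subunit of ATP synthase, stood at 59.4, 70.2 and 76.4 CPM in SPF, 176, 221 and 191 CPM in GF and 87.6, 76.8 and 86.8 CPM in CGF members of Hip (1.61 ± 0.23, adjusted p = 0.00886, edgeR). With the trend on gene length and GC content removed, 0 of 62 passed in Hip (median 0.50), and in PFC 20 rose and 1 fell of 50. Ribosomal protein genes then gave 6 rises and 3 falls of 34 in PFC. Atp5g1 was also higher in the other nuclei of GF Hip, at 91.1 to 130 CPM against 28.6 to 48.5 CPM in SPF.

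Transcripts linked to ribosomal RNA fell, 3 of 7 in Hip and 6 of 7 in PFC, against 0.322% and 12.6% of all genes. Gm42418 gave -1.62 ± 0.30 in Hip and -5.45 ± 0.25 in PFC, where the SPF libraries stood apart. Of all genes 2.08% rose in Hip and 18% in PFC, against which the counts of markers of other cells are given. Nrgn, a gene of excitatory neurons, rose in GF members of both regions (1.35 ± 0.31 in Hip, 1.44 ± 0.25 in PFC), as 1 of 12 neuron markers in Hip and 1 of 5 that rose in PFC. Nrgn differed from the other neuron markers in that it was higher in the members (664 CPM) than in the neuron gate (411 CPM) or the other nuclei (432 CPM). Hbb-bs, a beta globin of red cells, stood at 290, 7.81 and 123 CPM in SPF and 144, 7528 and 3442 CPM in GF members of Hip, so the groups overlapped, yet all 3 globin genes tested there rose. In PFC 2 of 4 rose. Astrocyte markers gave 0 of 6 in Hip and 2 rises of 6 in PFC, Slc1a2 and S1pr1, of which S1pr1 was higher in the members (234 CPM) than in the astrocyte gate (141 CPM) and so marks no astrocyte RNA here, oligodendrocyte markers 0 of 5 and 2 of 4, and mural markers 0 of 7 and 1 of 4, Vtn. The S1pr1 change in PFC turned direction with the trend on gene length and GC content removed. OPC markers gave 0 of 2 in both regions, fibroblast markers 0 of 1 in both, and choroid plexus markers 0 of 2 and 0 of 1. Summed choroid plexus markers of Hip members, in rising order, were 56.0, 2406 and 7889 CPM in GF libraries. They were 327, 336 and 2082 CPM in SPF and 126, 255 and 875 CPM in CGF libraries, so the groups overlapped. No microglia or ependymal marker held enough UMIs to be tested. The part of this RNA in the results was not tested.

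The comparison of GF with CGF mice asked what colonization changed. CGF mice also lived with an SPF cage mate, which by the study's own caveat may have caused some passing stress. Cage mate and colonization cannot be told apart here. In Hip 220 of 6526 genes differed (3.37%), 186 higher (2.85%) and 34 lower (0.521%) in GF members, and with the trend on length and GC content removed 40 were higher and 16 lower. Without GF mouse 7 no gene passed, without CGF mouse 18 there were 8, without CGF mouse 17 there were 13, without CGF mouse 19 there were 29, without GF mouse 6 there were 31, without GF mouse 5 there were 136 and without SPF mouse 30 there were 135. In PFC 1294 genes differed (27.8%), 759 higher (16.3%) and 535 lower (11.5%), and with that trend removed 525 were higher and 550 lower. Both comparisons use the GF libraries that were also set against SPF. Rgcc, a cell-cycle regulator of vessel growth, stood at 552, 242 and 221 CPM in GF and 21.9, 104.7 and 39.9 CPM in CGF members of Hip (2.71 ± 0.48, adjusted p = 0.0177, edgeR), with 126, 85.9 and 115 CPM in SPF.

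Pla2g4a, the phospholipase that frees arachidonic acid, was lower in GF than in CGF Hip, at 8.00, 35.0 and 19.3 CPM against 124, 154 and 127 CPM (-2.47 ± 0.35, adjusted p = 0.0117, edgeR). SPF lay between, at 52.0, 39.0 and 61.5 CPM. No GF library of Hip reached the filter on low counts for Pla2g4a. It was thus tested only through libraries where it was higher, and the fall is a description. Smad6, an inhibitor of BMP signals, fell by 1.39 ± 0.32. Immediate-early genes rose in 9 of 18 cases in Hip and 14 of 15 in PFC, interferon-responsive genes fell in 1 of 25 (Ddx60) and 8 of 20, and 15 of 62 and 31 of 50 genes of oxidative phosphorylation rose. Nothing is read from the interferon counts or the immediate-early counts of either region, because of the filter on low counts, as above. Of all genes 2.85% rose and 0.521% fell in Hip, and 16.3% rose and 11.5% fell in PFC. Without 1 mouse 0 to 10 immediate-early and 0 to 21 oxidative phosphorylation genes rose in Hip, and 5 to 12 interferon-responsive genes fell in PFC. No gene of the identity, junction, solute carrier or efflux lists passed in Hip. In PFC identity genes gave 5 rises and 9 falls of 31, and solute carriers 4 and 4 of 24, the latter near the 27.8% of all genes that differed, with Slco1c1, the carrier of thyroxine, at -0.82 ± 0.22 and the transferrin receptor Tfrc at -1.30 ± 0.28.

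Few genes passed between CGF and SPF members. In Hip 1 of 6526 genes differed (0.0153%), with 272 at an unadjusted p under 0.05 and 3 by DESeq2. This was Mid1, a ubiquitin ligase of microtubules, at 85.4, 54.6 and 93.4 CPM in SPF, 79.98, 105.1 and 142 CPM in GF and 285, 363 and 336 CPM in CGF members (2.03 ± 0.28, adjusted p = 0.0245, edgeR). CGF lay above both other groups in Hip. The call held in 2 of 9 fits without 1 mouse, those without GF mouse 5 or 7. It held in no fit that left out a CGF or SPF mouse. Mid1 spans the boundary of the region that the X and Y chromosomes share in mice, and the groups did not differ in sex by their counts. Over all nuclei Xist, which female cells express, stood at 0 to 3.40 CPM in the 18 libraries, and 4 Y-linked genes (Ddx3y, Eif2s3y, Kdm5d and Uty) summed to 196 to 355 CPM. In PFC 0 of 4647 genes passed with edgeR (0%), 313 had an unadjusted p under 0.05, and DESeq2 called 2. Without SPF mouse 31 or 32 edgeR called 5 and 4. The medians of the interferon-responsive list were -0.52 in Hip and -0.42 in PFC, with 0 genes called in either.

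Between regions, GF mice gave the comparison of libraries closest in depth, but Hip and PFC did not overlap in it, at 49067853 to 56240654 against 59126586 to 71463928 UMIs per library. There 8 of 6679 genes differed (0.120%), 361 at an unadjusted p under 0.05 and 10 by DESeq2, and with the mouse as a block 23 differed. Without GF mouse 7 none passed, without GF mouse 5 or 6 there was 1, without CGF mouse 19 there were 13 and without SPF mouse 31 there were 19. St6galnac5, a sialyltransferase that makes gangliosides, stood at 224, 168 and 172 CPM in Hip and 36.1, 52.5 and 46.0 CPM in PFC, without overlap (2.07 ± 0.28, adjusted p = 0.00156, edgeR). Shisa6, an auxiliary protein of AMPA receptors, was higher in Hip by 2.85 ± 0.53, Epha6, an ephrin receptor, by 2.67 ± 0.52 and Ntng1, a netrin of axon guidance, by 2.41 ± 0.49, and Arpp19, a phosphatase inhibitor, was lower (-1.25 ± 0.23), as was Npy, a neuropeptide. Neuron RNA was present in the members of both regions, and its part in these differences was not tested. Of the identity, junction, carrier and efflux lists 0 genes passed.

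Ttr, the thyroxine carrier of choroid plexus, was the largest of these differences, at 8.00, 7388 and 2054 CPM in Hip and 2, 0 and 0 UMIs in PFC of GF mice. The other nuclei of Hip moved with it, at 6.44, 2852 and 674 CPM in the same mice. In SPF mice 480 genes differed between regions (7.19%) and in CGF mice 688 (10.3%), 280 and 362 of them higher in Hip; with the trend on length and GC content removed 171 were higher and 293 lower, and 265 higher and 477 lower. In both groups the PFC libraries were those that stood apart, so region and library cannot be told apart. Without SPF mouse 30, 31 or 32 the count in SPF mice was 182, 295 and 158, and without CGF mouse 17, 18 or 19 that in CGF mice was 327, 270 and 130. The change between GF and SPF differed between regions for 85 of 6679 genes (1.27%), 37 more positive and 48 more negative in PFC, or 33 and 79 with that trend removed. Without GF mouse 5, 6 or 7 the count was 48, 33 and 25, and without SPF mouse 30 or 32 it was 39 and 33.

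To ask whether a change was particular to endothelial nuclei, the GF vs. SPF change was compared with that in 1099 astrocyte nuclei gated in the same libraries, with the mouse as a block. In Hip 0 of 5713 genes differed with edgeR (0%), 363 at an unadjusted p under 0.05 and 1 by DESeq2. On simulated counts this comparison found 7% of 100 genes changed by 1 log2 unit and 66% of 100 changed by 2. In PFC the SPF and CGF libraries held 1 to 6 such astrocytes each, only 212 genes could be tested and 0 differed (0%), with 16 at an unadjusted p under 0.05 and 0 by DESeq2. Set against all other kept nuclei, 2 of 6526 genes differed in Hip, Irak2 and Lin7a, and 1346 of 4642 in PFC, where the SPF libraries stood apart. Against astrocytes, none of the changes between GF and SPF in Hip was shown to be particular to endothelial nuclei, and the changes between GF and CGF were not compared in this way.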

How the data were processed

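The authors prepared nuclei with the 10x Genomics droplet method and deposited, for each library, a matrix of raw UMI counts per gene and nucleus that Cell Ranger 3.1.0 wrote (version in the file headers, genome mm10). The labels' notes also name CASAVA 1.8, and the series text and the protocol name different kit and Cell Ranger versions, so the kit is not certain. Whether intronic reads were counted is not given in the sources used here. Group, region and mouse came from the labels.

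Members were chosen by the rule in the report, their counts were summed per library, and the sums were tested with edgeR 4.0.16 (filterByExpr, TMM, glmQLFit, glmQLFTest, Benjamini-Hochberg, threshold 0.05) in R 4.3.3 with limma 3.58.1. All 9 sums of a region, or all 18, entered a fit. CPM is counts per 1e6 UMIs of the members of a library. The 16 genes of the rule were left out of the tests. Shares were compared with exact permutation tests (scipy 1.17.1, Python 3.11.15). Named were 22 core genes, up to 2 genes each way per list and the 5 that rose and 5 that fell most at a mean of at least 50 CPM, without overlap between groups. Members and lists were chosen with earlier results of these data known; the interferon, MHC class I, immediate-early and glucocorticoid lists and genes named from them were chosen after the values were seen. Alternatives were DESeq2 1.42.0, no filter on low counts, a stricter rule (sum of at least 6 and none of the 12 genes), sums thinned to the smallest, the trend on gene length and GC content removed (99.55% of 30905 genes had both), each mouse left out, the mouse as a block, and, added later, Rgs5 out of the rule and members over 10000 UMIs left out. The steps were tested on simulated data. Hip and PFC of a mouse are 1 animal, so mouse numbers pair them. Across 6689 genes the deviations of a mouse's 2 regions correlated by -0.03 to 0.24, and those of different mice of a group by -0.21 to 0.08. Promoter sequences were those of RefSeq. Results for 2 genes are not reported here.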

Additional observations from a re-analysis of the deposited data

Results flagged for a closer look

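The change between GF and SPF members differed between PFC and Hip for 85 genes in the edgeR test of the difference itself. In PFC it was more positive, in log2 units, for Gm48678 (4.12), Itm2c (4.10), Sorbs2os (3.50), 4921511C10Rik (3.38) and Glp2r (3.38), and more negative for mt-Nd4l (-4.14), Camk1d (-3.96), Gm42418 (-3.90), Gm26917 (-3.75) and Cmss1 (-3.22). Itm2c stood at 119, 219 and 208 CPM in SPF and 96.0, 200 and 214 CPM in GF members of Hip, and at 15.8, 0 and 7.75 CPM in SPF and 136, 146 and 182 CPM in GF members of PFC. In PFC, region and library cannot be told apart for these differences.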

How the results depend on the processing

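Counts of genes past the threshold depended on the processing in Hip more than in PFC, and the cause was not tested. In order, GF vs. SPF, GF vs. CGF and CGF vs. SPF of Hip gave 86, 105 and 3 genes by DESeq2, 329, 408 and 49 without a filter on low counts, 1, 1 and 0 by the stricter rule, which left 67 members and 55 genes to test in Hip, 41, 56 and 2 with the trend on length and GC content removed, and 324, 352 and 0 without members over 10000 UMIs. Thinned sums gave 51 and 117 in the first 2, and leaving Rgs5 out of the rule gave 508 in the first. In PFC the stricter rule gave 55, 58 and 1 of 280 genes tested, thinned sums gave 763 and 745 in the first 2, and CGF vs. SPF gave 2 by DESeq2 and 39 without a filter. Hip vs. PFC of GF mice gave 1 without Rgs5 in the rule, 16 with the length and GC trend removed, 3 without members over 10000 UMIs, 96 without a filter, 15 by the stricter rule and 1 with thinned sums. Hip vs. PFC gave 798, 16 and 278 in SPF mice (Rgs5 left out, stricter rule, thinned) and 457, 52 and 405 in CGF mice (DESeq2, stricter rule, thinned). The region difference gave 135 without Rgs5 in the rule, 218 without a filter, 10 by the stricter rule and 37 thinned. Against astrocytes, Hip gave 1 by DESeq2, 24 without a filter and 2 against all other nuclei, and PFC 58 and 1346 by the last 2.

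The mouse as a replicate block, which pairs Hip and PFC, gave 23 genes in GF mice, among them all 8 of the fit without it, 502 in SPF mice, 743 in CGF mice and 88 for the region difference. Without the block, the comparison with astrocytes gave 0 in both regions.

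Leaving out each mouse in turn gave 0 to 205, 0 to 272 and 0 to 1 genes in Hip, 956 to 1813, 885 to 1553 and 0 to 5 in PFC, 0 to 19, 158 to 487 and 130 to 762 between regions in GF, SPF and CGF mice, 25 to 84 for the region difference, and 0 to 1 against astrocytes in either region. GF minus SPF shares ranged from -0.04105 to 0.6443 points in Hip and from 0.1573 to 0.6123 in PFC, Hip minus PFC between the groups from -0.3663 to 0.1026, and over mice from -0.4182 to -0.2746. Thinning nuclei to 1000 UMIs gave 0.4482 points in PFC and -0.1352 over mice, leaving out Rgs5 gave -0.07358 over mice and turned GF minus SPF in Hip from 0.2831 to -0.1076 (PFC from 0.4371 to 0.7282, exact p = 0.0607 over 3 groups), and the stricter rule turned GF minus SPF of Hip minus PFC from -0.154 to 0.2025 (exact pair p = 0.9 and 0.1, the smallest possible for a pair), with exact p = 0.514 and 0.003571 over the 3 groups.

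S1pr1 turned to -0.4182 (GF vs. SPF, PFC) and -0.1171 (GF vs. CGF, PFC), and Cav2 to -0.02653 (GF vs. CGF, PFC), with the length and GC trend removed, and Abcc9 to -0.2331 (GF vs. CGF, PFC) without Rgs5 in the rule. Of 7233 values of single genes under alternatives 6431 kept direction and side of the threshold, 751 fell below it and 47 passed it. Sums rested on 28 to 148 members in Hip and 57 to 195 in PFC, and fewer genes could be tested in PFC (4647 against 6526).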

Other observations

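Members over 10000 UMIs numbered 0 to 12 in a library and held up to 55.9% of its summed UMIs (SPF mouse 30, Hip). Members with less than 1000 UMIs made up 22.7% to 34.5% of members in SPF and CGF libraries of PFC and 0% to 8.42% elsewhere. The median mitochondrial share of members was 0.316% to 0.804% in SPF and CGF Hip, 1.30% to 2.70% in GF Hip, 0.761% to 1.77% in GF PFC and 2.34% to 4.53% in SPF and CGF PFC. In Hip the mitochondrial gene mt-Co3 rose in GF members (1.80 ± 0.36 against SPF, edgeR), and in PFC it fell (-0.64 ± 0.21), a difference of -2.52 ± 0.42 (adjusted p = 0.0027). Region and library cannot be told apart for this difference either.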
